A study of Mus musculus with 2 samples.

Results

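In the primitive endoderm of the mouse blastocyst, a minority of cells carried transcripts of Spink3, which encodes a secreted inhibitor of trypsin, or of S100g, which encodes the calcium-binding protein calbindin-D9k. The cells came from 1 single-cell library of whole B6C3F1 embryos at embryonic day 4.5. Of 1097 barcodes kept in that library, 425 were classed as primitive endoderm by the summed UMIs of Gata4, Gata6, Sox17, Pdgfra and Foxq1. Within these, members were chosen by their own Spink3 and S100g counts: 87 cells with at least 2 UMIs of Spink3 and S100g together (called positive here) were compared with 283 cells that had 0 UMIs of both (called negative), so that 370 of the 6425 cells kept in the series entered the comparison. A UMI is a molecular tag that marks 1 captured transcript. Barcodes were kept at 1000 or more UMIs, 500 or more genes and at most 25% mitochondrial UMIs. Primitive endoderm cells had at least 5 UMIs of the 5 genes, and at least 2 times the UMIs of the epiblast genes Nanog, Tdgf1, Sox2, Fgf4, Gdf3, Klf2 and Trh and of the trophectoderm genes Krt18, Tspan8, Dppa1 and Gata3. The sources used here do not give the number or the sex of the embryos. The second library held embryoids, which are aggregates of Lifeact-RFPruby embryonic stem (ES) cells with XTE cells, themselves reprogrammed from ES cells that carry a Gata6-H2B:Venus reporter. They had spent 48 h in microwells and then 48 h on cell-repellent plates. Each kind of sample is 1 library, so no difference below has a replicate check or a p-value, and every interval covers counting error only.

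Primitive endoderm is the inner layer of the late blastocyst that faces the cavity. Its cells descend from an inner cell mass they share with the epiblast, and later form parietal endoderm, which lays down a thick basement membrane, and visceral endoderm, an absorptive epithelium that encloses the embryo. Visceral endoderm takes up maternal proteins through cubilin and megalin, a pair of large apical receptors, and hands them to lysosomes for digestion.

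Both sides carried the genes that define the lineage. Positive cells had 7 to 124 UMIs of the 5 primitive endoderm genes, with a median of 36, and negative cells had 5 to 89, with a median of 30. Summed over cells, these genes made up 3267 CPM, which is UMIs scaled to a total of 1000000, on the positive side and 3560 CPM on the negative side. The epiblast genes stood at 78.8 and 133 CPM and the trophectoderm genes at 12.8 and 18.4 CPM, levels that the rule itself holds down. No marker of leukocytes or of decidua and fibroblasts reached 10 UMIs over both sides, and Afp, Apoa1 and Trf, products of mature visceral endoderm, were at 0 UMIs in both. The 2 libraries had 7 kept barcodes in common, 2 of them among the 370 cells.

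The positive cells were sequenced more deeply. Their median was 11577 UMIs per cell (range 1753 to 24567) against 9134 in the negative cells (1538 to 20003), a ratio of 1.27. Under 5000 UMIs lay 8 of the 87 positive cells and 78 of the 283 negative cells. The mitochondrial share was alike, with medians of 8.71% and 9.51%. A threshold of 2 UMIs is passed more easily by a deep cell, so ratios were also computed with the negative cells weighted to the depth of the positive cells and with every cell thinned to 3000 UMIs.

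Spink3 and S100g were rare in the other lineages. At least 1 UMI of either gene was present in 142 of 425 primitive endoderm cells (33.4%, exact Clopper-Pearson 95% interval 28.9 to 38.1%), with a median depth of 9645 UMIs. It was present in 1 of 252 epiblast cells, with a median depth of 9921 UMIs, and in 3 of 374 trophectoderm cells, with a median of 8653 UMIs. After thinning to 3000 UMIs the share was 22.2% of 365 primitive endoderm cells, 0% of 236 epiblast cells and 0.287% of 348 trophectoderm cells. No epiblast or trophectoderm cell reached the 2 UMIs that made a cell positive, and 0 of 252 epiblast cells allows a share of up to 1.19% by a limit of 3 counts, or 1.45% by the exact interval. The positive share of primitive endoderm was 20.5% (16.7 to 24.6%).

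The genes that drew the line mostly marked different cells. Spink3 was detected in 93 primitive endoderm cells and S100g in 66, and 17 cells held both, beside the 14.4 that the product of the shares gives. S100g was present in 18.3% of cells with Spink3 (11 to 27.6%) and in 14.8% of cells without it (11.1 to 19%), intervals that overlap. The 87 positive cells were therefore made of 48 with Spink3 alone, 22 with S100g alone and the 17 with both. Median depths in these were 12676, 7259 and 12242 UMIs. Most positive cells were close to the threshold, 29 at 2 UMIs, 20 at 3 and 12 at 4, whereas 12 cells had 8 or more and the highest had 22.

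**Figure D1:**
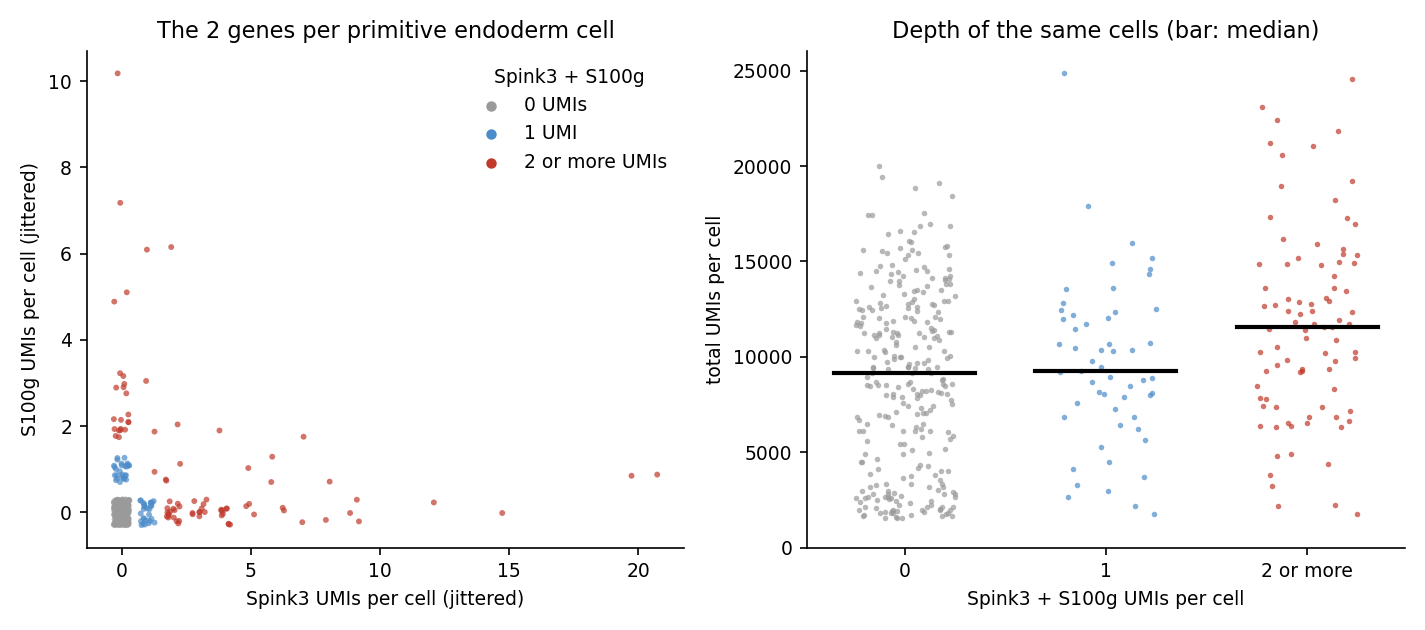
Left, Spink3 UMIs against S100g UMIs for each of the 425 primitive endoderm cells of the blastocyst, jittered, coloured by the sum. Right, total UMIs per cell by that sum, with the median as a bar. Of the cells, 283 lie at 0 for both genes and 17 have UMIs of both, and the positive cells have the highest median depth, 11577 UMIs.

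The comparison of positive with negative cells covered 4099 genes with at least 50 CPM and UMIs in at least 10% of cells on either side. Ratios are given as log2 after adding 1 CPM to each side, with the exact 95% interval of the ratio of counts, and a gene was counted at a difference of 2-fold or more with that level on its higher side. Spink3, S100g and the genes that define the lineages were left out. By this rule 50 genes (1.22% of those tested) were higher in positive cells and 22 (0.537%) were lower, and the median over all tested genes was -0.0019. The higher genes were led by the transcriptional cofactor Cited1, the tight junction protein Cldn6 and the transcription factor Tfec, and included the uptake receptors Lrp2 and Cubn. The lower genes were led by the autophagy receptor Calcoco2 and included the pluripotency factors Nr0b1 and Dppa3.

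With depth made equal, nearly all of these genes kept their direction. They were picked on these same cells, with sides drawn at full depth, so the choice favours a kept direction. With negative cells weighted to the depth of the positive cells, all 50 higher and all 22 lower genes kept their sign, and 36 and 12 of them stayed past 2-fold. After thinning to 3000 UMIs, 34 of the 50 and 12 of the 22 stayed past 2-fold, and 49 and 21 kept their sign. Exceptions were Tspan13, a tetraspanin, at -0.20 and Slc44a1, a choline transporter, at 0.19.

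**Figure D2:**
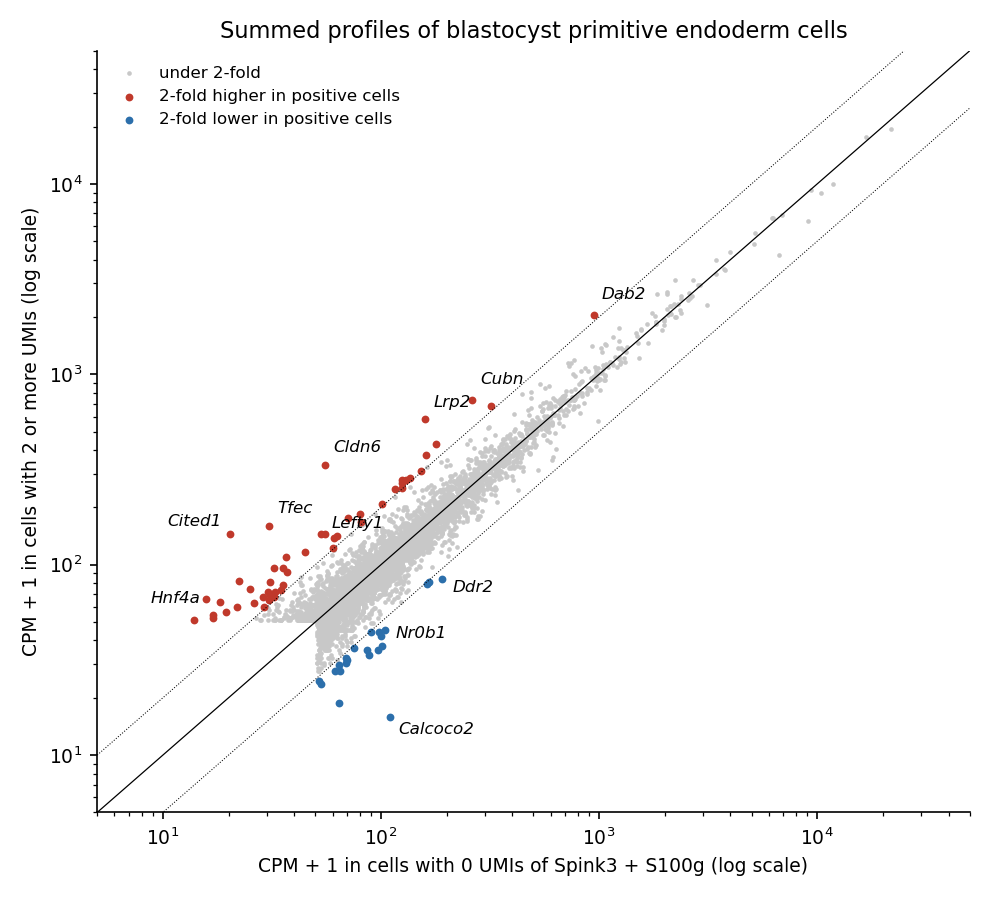
CPM plus 1 in the 283 negative cells (x, log scale) and the 87 positive cells (y, log scale) of each of 4099 tested genes. The solid line marks equal levels and the dotted lines 2-fold. The 50 red genes lie above and the 22 blue genes below, and Dab2 is at the top right with 2042 against 942 CPM.

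Genes of endocytic uptake had the most members past 2-fold among the 41 gene lists examined. The lists differ in size and were chosen with earlier results of these data known, so this rank is no separate support. Of 14 uptake and lysosomal protease genes tested, 6 were higher and 0 lower. Of the 18 with at least 10 UMIs, 17 lay above 0, with a median of 0.44 beside -0.04 for all 10601 genes measured. Of those 10601 genes, 4772 lay above 0 and 5829 below. Lrp2, which encodes megalin, stood at 580.2 CPM (534 to 629) in positive cells and 158 CPM (143 to 175) in negative cells, a log2 ratio of 1.87 (1.69 to 2.06). Cubn, which encodes cubilin, was at 728 against 259 CPM, a ratio of 1.49 (1.34 to 1.64). Dab2, the adaptor that links these receptors to clathrin, was at 2042 against 942 CPM, a ratio of 1.12 (1.03 to 1.20). These 3 members of 1 uptake machine were therefore all more than 2-fold higher, with intervals on the 2 sides that do not overlap. Amnionless (Amn), which carries cubilin to the surface, was at 783 against 444 CPM, a ratio of 0.82, under the fold. The chaperone of megalin, Lrpap1, had a ratio of 0.33. Among the proteases, cathepsin H (Ctsh) was at 50.2 against 12.8 CPM (1.89), cathepsin C (Ctsc) at 279 against 123 CPM (1.17) and legumain (Lgmn) at 267 against 124 CPM (1.10). Cathepsin L (Ctsl) and cathepsin B (Ctsb) differed by only 0.38 and 0.31.

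The same cells, taken singly, showed this shift with much overlap. Cubn, Lrp2 and Dab2 were already past 2-fold in the sums, so the values below describe spread and are no separate support. The summed level of Cubn, Amn, Lrp2 and Dab2 had a median of 3076 CPM per cell in positive cells, from 0 to 10990, and of 1496 CPM in negative cells, from 0 to 10240. The level lay above the negative median in 78 of 87 positive cells (89.7%), and above the negative 95th percentile in 26 (29.9%). After thinning to 3000 UMIs, Cubn was detected in 76.2% of 84 positive cells and 48.7% of 230 negative cells, and Lrp2 in 57.1% and 31.3%. Without thinning, these shares were 95.4% and 68.2% for Cubn and 85.1% and 46.6% for Lrp2, with 3 positive and 53 negative cells below 3000 UMIs.

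Few transcription factors of endoderm were past 2-fold. Hnf4a, a nuclear receptor of visceral endoderm and liver, was at 53.2 against 16 CPM, a ratio of 1.67 (1.11 to 2.36). Hhex, a homeobox factor of the anterior visceral endoderm, was at 139.9 against 61.7 CPM, a ratio of 1.17 (0.84 to 1.52). Sox7 and Foxa2 were level, with ratios of 0.07 and 0.08. In all 2 of 11 tested endoderm factors were higher and none lower. The median of the 11 tested was 0.40, and that of the 14 measured was 0.08, with 8 above 0. The genes that define the lineage here lay between -0.31 for Pdgfra and 0.09 for Foxq1, which the rule partly sets.

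Outside the endoderm list, Tfec encodes a basic helix-loop-helix factor of the MITF and TFE family, whose members bind the E-box CACGTG. It was at 159.6 CPM (136 to 186) against 29.6 CPM (23.3 to 37.2), a ratio of 2.39. Cited1, a cofactor of CBP and p300, was at 144 CPM (121 to 169) against 19.2 CPM (14.2 to 25.5), a ratio of 2.84 and the largest among the higher genes. Thinned to equal depth, Cited1 was detected in 27.4% of positive cells and 4.78% of negative cells. Atf3, a stress-induced factor of the bZIP class, was at 108 against 35.7 CPM. Atf3 is among the genes that cell dissociation induces. The median of the 12 such genes measured was 0.45, with 9 above 0, beside 4772 of all 10601 genes measured. Their part in the result was not tested.

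Signals and products of visceral endoderm ranged from absent to well above the 50 CPM floor. Lefty1, a secreted Nodal inhibitor made by anterior visceral endoderm, was at 144 against 52.1 CPM, a ratio of 1.45 (1.11 to 1.82), and 16.4% of its positive-side UMIs came from 1 cell. Its close relative Lefty2 had a ratio of 0.16, and reads that both genes share could have been split by the counting. The Wnt inhibitor Dkk1 was at 619 against 404 CPM, a ratio of 0.61. Cer1, the other Nodal inhibitor of that domain, had 0 and 1 UMIs. Apolipoprotein M (Apom), which carries sphingosine-1-phosphate, was at 73.9 against 24.0 CPM, a ratio of 1.58, and apolipoprotein E (Apoe) at 662 against 487 CPM, 0.44. Transthyretin (Ttr), a classic secreted product of visceral endoderm, had 5 UMIs in positive and 1 in negative cells, too few for a ratio to carry weight. Cyp26a1, which degrades retinoic acid, was at 51.2 against 16 CPM, a ratio of 1.62.

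Membrane and junction genes of epithelia differed gene by gene. Cldn6, a claudin of early embryonic epithelia, was at 334 CPM (299 to 372) against 54.5 CPM (45.7 to 64.4), a ratio of 2.59. No other of the 10 tested junction and polarity genes was past 2-fold. Thinned to equal depth, it was detected in 40.5% of positive cells and 12.6% of negative cells. E-cadherin (Cdh1) and the junction scaffold Tjp1 had ratios of -0.02 and -0.23, and the polarity kinase Prkci was at 96.5 against 170.3 CPM, -0.81. On the apical side, the peptidase Dpp4 had a ratio of 1.57, the scaffold Slc9a3r1 1.32 and podocalyxin (Podxl) 1.20, which are 3 of 6 tested apical genes, while the membrane linker ezrin (Ezr) had -0.10. Clic5, which works with ezrin in microvilli, was at 55.2 against 18.4 CPM, a ratio of 1.53.

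Further genes at the top of the list had other roles. Morc4, an ATPase of the MORC family, was at 65.0 against 14.8 CPM, Eml1, a microtubule-binding protein, at 80.8 against 21.2 CPM, and Cotl1, which binds actin, at 63.0 against 17.2 CPM. Amot, a scaffold of the Hippo pathway chosen after its values were seen, was at 375 against 159.8 CPM, a ratio of 1.23. Of the genes past 2-fold, H2-K1, Gm4735 and Ldha among the higher and Ly6a and Fabp5 among the lower have close relatives or pseudogenes, so their values are uncertain where reads are shared.

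Sequences before a RefSeq start of 4 genes are shown. S100g was taken because it draws the line, Tfec and Cubn because they are among the leading higher genes. Amot was taken because its window holds the E-box that the Tfec family binds. Each sequence is the 250 bases before a RefSeq start in GRCm38.p6, all on the minus strand, with matches to 6 short motifs in capitals. Both strands were searched. The first of the motifs is AGATAA and the second is its variant with the letters TGATAA, which are known from factors such as Gata4. The E-box is CACGTG, and the short motif known from factors such as Sox17 is ACAAT. The motif known from Hnf4a is CAAAGTC, and the one known from forkhead factors such as Foxa2 is TGTTTAC. The S100g window is chrX:162964600-162964849, that of Tfec chr6:16898442-16898691, that of Cubn chr2:13491877-13492126 and that of Amot chrX:145487640-145487889. The Amot window lies inside the span of its gene, chrX:145446424-145505966, before an inner start. The Tfec window overlaps the end of its gene at 16898464.
S100g: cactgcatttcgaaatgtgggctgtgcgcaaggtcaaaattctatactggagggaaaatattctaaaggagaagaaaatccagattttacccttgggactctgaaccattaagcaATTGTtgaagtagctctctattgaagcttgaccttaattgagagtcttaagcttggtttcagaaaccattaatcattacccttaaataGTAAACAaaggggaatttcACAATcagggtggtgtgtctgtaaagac
Tfec: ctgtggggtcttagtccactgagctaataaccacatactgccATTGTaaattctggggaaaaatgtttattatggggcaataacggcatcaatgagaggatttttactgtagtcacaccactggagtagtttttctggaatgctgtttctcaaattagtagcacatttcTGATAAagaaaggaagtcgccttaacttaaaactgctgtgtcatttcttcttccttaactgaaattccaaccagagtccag
Cubn: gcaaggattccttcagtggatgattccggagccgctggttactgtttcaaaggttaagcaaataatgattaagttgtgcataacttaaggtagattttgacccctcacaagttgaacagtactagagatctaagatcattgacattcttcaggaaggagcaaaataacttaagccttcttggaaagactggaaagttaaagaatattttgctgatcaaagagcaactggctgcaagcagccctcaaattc
Amot: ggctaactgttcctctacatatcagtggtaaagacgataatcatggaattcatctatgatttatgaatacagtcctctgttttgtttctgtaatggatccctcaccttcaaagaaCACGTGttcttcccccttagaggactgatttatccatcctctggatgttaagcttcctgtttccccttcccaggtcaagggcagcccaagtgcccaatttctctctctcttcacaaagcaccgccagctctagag

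In these windows S100g has the SOX motif at 2 places and the forkhead motif at 1, Tfec has TGATAA and the SOX motif, Amot has the E-box, and Cubn has no match. Of the 50 higher genes, 40 had a window in the RefSeq table, from which 1 chromosome was left out. Of these 40, 7 (17.5%) held CACGTG in a window of this length, beside 6.86% of all 27025 genes there. They are Stk17b, Ldha, Bnip3, Sc5d, Sgk1, Lgmn and Amot. The motif known from Hnf4a was in 12.5% of the 40 and in 4.33% of all genes, and the forkhead motif in 0% and 3.54%. AGATAA was in 12.5% and 11.4%, TGATAA in 12.5% and 9.21%, and ACAAT in 25.0% and 30.9%. Of the 22 lower genes, 14 had a window. ACAAT was in 50.0% of these 14, AGATAA in 21.4% and TGATAA in 0%. CACGTG, the motif known from Hnf4a and the forkhead motif were each in 7.14%, which is 1 gene. A match is a stretch of letters, not a bound site.

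The lower genes held factors of the naive pluripotent state, which the early inner cell mass expresses and endoderm later loses. All 14 naive pluripotency genes measured lay below 0, beside 5829 of all 10601 genes measured. Their median was -0.40, but only 2 of 13 tested were past 2-fold. Nr0b1, an orphan nuclear receptor of ES cells, was at 44.3 against 103 CPM, a ratio of -1.20 (-1.71 to -0.75), with 24.4% of its positive-side UMIs in 1 cell. Dppa3, which protects maternal DNA methylation in the zygote, was at 31.5 against 68.1 CPM, -1.09. Tfcp2l1, an ES cell factor, had a ratio of -0.84 and Fbxo15 one of -0.80, while Esrrb, Klf4 and Zfp42 lay between -0.33 and -0.20. The 10 DNA methylation genes measured also all lay below 0, with a median of -0.33, among them the maintenance factor Uhrf1 at -0.67 and the demethylase Tet2 at -0.86, and none of the 8 tested was past 2-fold.

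Calcoco2, which tethers cargo for autophagy, was the lowest gene relative to negative cells, at 14.8 CPM (8.27 to 24.4) against 109 CPM (96.4 to 123), a ratio of -2.80. At 3000 UMIs it was detected in 5.95% of positive and 23.0% of negative cells. Mras, a small GTPase of the RAS family, was at 34.5 against 95.7 CPM (-1.45), and Ddr2, a receptor kinase for collagen, at 82.8 against 189.5 CPM (-1.19). Fbp2, a fructose bisphosphatase, had a ratio of -1.77, Fam159b -1.44, Ly6a, a surface protein, -1.39, Gpa33, another, -1.28 and Rhpn1 -1.24. Tk1, the thymidine kinase of S phase, was at -1.23, the homeobox gene Crxos1 at -1.18, the fatty acid carrier Fabp5 at -1.16 and the ubiquitin ligase Arih2 at -1.15. The kinase Nuak1 was at -1.15. Ptges, a prostaglandin E synthase that trophectoderm also makes, had 23 UMIs in positive cells, 30.4% of them in 1 cell.

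Basement membrane genes and markers of parietal endoderm were level. None of 15 basement membrane genes tested was past 2-fold, and the median of the 17 measured was 0.08. Collagen IV (Col4a1) was at 2575 against 2382 CPM, laminin beta 1 (Lamb1) at 1459 against 1667 CPM and Sparc at 6605 against 6250 CPM. Of 8 tested parietal endoderm genes none was past 2-fold and the median of 11 measured was -0.13.

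Glycolysis genes lay mostly above 0, with 1 past the fold. Of 14 measured, 13 were above 0, beside 4772 of all 10601 genes measured, and the median was 0.64. Of 12 tested, only lactate dehydrogenase A (Ldha) was past 2-fold, at 679.7 against 319 CPM, 1.09 (0.94 to 1.24). Enolase (Eno1) had a ratio of 0.88, phosphoglycerate kinase (Pgk1) 0.85 and the glucose transporter Slc2a3 0.73. The 18 secretory pathway genes had a median of 0.37 and the 14 cholesterol synthesis genes 0.42, with none past 2-fold. Genes of S phase and of G2 and M phase had medians of 0.09 and -0.15, again with none past 2-fold. Xist, which marks female cells, was at 123 against 222 CPM, and 4 Y-linked genes together at 83.7 against 113 CPM. The part of embryo sex in the result was not tested.

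The leading genes differed in their own direction in the cells with the most Spink3 and S100g, but most were not in strict order over the classes between. From 0 UMIs to 5 or more, all 15 leading higher genes and all 15 leading lower genes differed in their own direction, and 5 and 4 of them moved that way at every step of 5 classes. These genes were picked on all positive cells, which include those with 5 or more UMIs. Their direction between the first and last class is therefore largely set by the choice. In cells with 0, 1, 2, 3 to 4 and 5 or more UMIs of both genes (283, 55, 29, 32 and 26 cells), Lrp2 stood at 158, 285, 299, 498 and 925 CPM. Dab2 stood at 942, 1222, 1380, 1960 and 2714 CPM, and Cldn6 at 54.5, 127, 155, 375 and 435 CPM. Calcoco2 went the other way, with 109, 41.7, 28.8, 14.5 and 3.08 CPM, the last from 1 UMI. These 4 genes, chosen after their values were seen, kept 1 direction from the first class to the last. Hnf4a did not, with 16, 37.9, 36, 70.2 and 46.3 CPM, nor did Nr0b1, with 103, 110.0, 46.8, 67.8 and 12.3 CPM. Cells just outside the threshold, with 1 UMI, and just inside, with 2, had overlapping intervals for Lrp2, Dab2, Cldn6, Calcoco2 and Hnf4a. So did Cubn, at 357 (308 to 411) and 429 (355 to 513) CPM. Nr0b1 did not, at 110.0 CPM (83.55 to 142.2) with 1 UMI and 46.8 CPM (24.93 to 80.08) with 2. Cited1 was at 62.6 CPM (43.1 to 87.9) with 1 UMI and 32.4 CPM (14.8 to 61.5) with 2, the reverse of the order of the other classes. Between 0 and 1 UMI, 15 of the leading higher genes differed in their own direction and 14 of the lower. The cells with 0 UMIs are the negative cells on which the genes were picked, so the choice favours this step too. From 1 to 2 UMIs, 7 of the 15 higher genes and 8 of the 15 lower genes moved in their own direction. Median depth was 9134, 9268, 9278, 12154 and 12311 UMIs in the 5 classes. Cells under 5000 UMIs made up 27.6% of those with 0 UMIs and 14.5% of those with 1, and the part of depth in these steps was not tested.

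**Figure D3:**
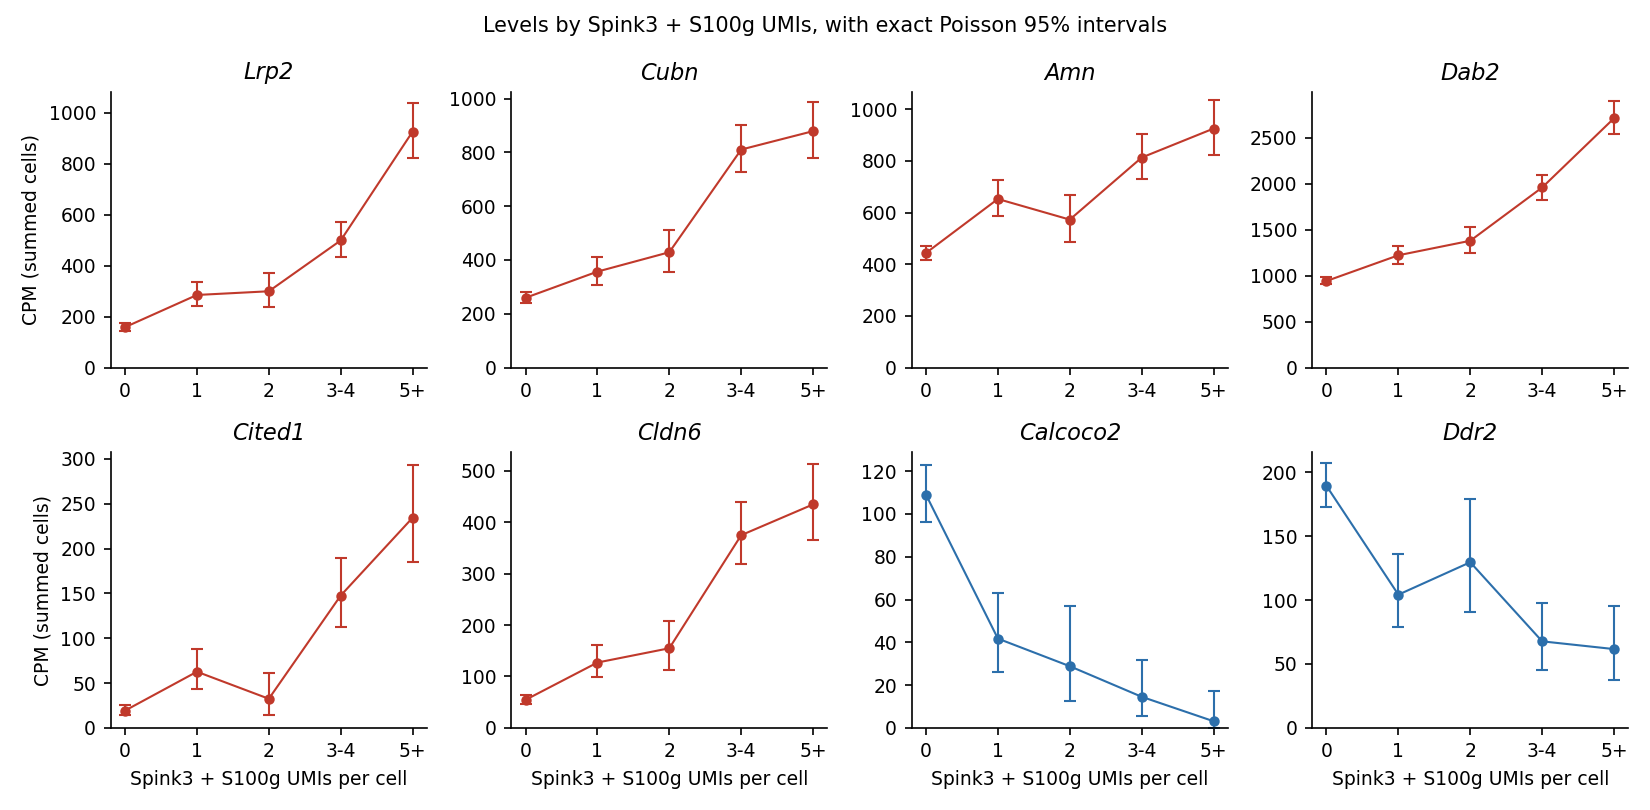
CPM of 8 genes (y) in summed primitive endoderm cells of the blastocyst, by UMIs of Spink3 and S100g per cell (x), with exact Poisson 95% intervals. The 6 red genes end highest in cells with 5 or more UMIs and the 2 blue genes end lowest, as with Calcoco2 at 3.08 CPM.

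Cells with Spink3 alone and cells with S100g alone differed from each other in several of the leading genes. Against the same negative cells, the 48 cells with Spink3 alone had 84 of 4136 tested genes higher (2.03%) and 97 lower (2.35%), and the 22 cells with S100g alone had 134 of 4418 higher (3.03%) and 73 lower (1.65%). The smaller number of UMIs behind the latter, 194451 against 597090, gives them wider counting intervals. Of the 50 genes higher in all positive cells, 49 were past 2-fold in the cells with Spink3 alone and 7 in the cells with S100g alone. These 7 were Morc4, Hnf4a, Atf3, Dpp4, Habp2, Lefty1 and Slc26a2. Of the 22 lower genes, 21 and 4 were past 2-fold. The 17 cells with both genes had 37 of the 50 and 18 of the 22 past 2-fold. These genes were picked on the summed positive cells, where cells with Spink3 alone gave 597090 of 1015149 UMIs, so the choice itself favours a high count there.

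Cited1 was at 188 CPM in cells with Spink3 alone, 139 CPM in cells with both, 15.4 CPM in cells with S100g alone and 19.2 CPM in negative cells. The direct ratio of Spink3 alone over S100g alone was 3.52 (2.02 to 5.90), on 112 and 3 UMIs. Cldn6 followed the same order, with 415, 376, 36.0 and 54.5 CPM, and so did Tfec, with 203, 169.9, 15.4 and 29.6 CPM. Nr0b1 was at 21.8 CPM with Spink3 alone and 123 CPM with S100g alone, a direct ratio of -2.45 (-3.60 to -1.47). Ldha was at 864 and 211 CPM. So for these genes the cells with S100g alone lay at or beyond the level of negative cells.

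Some genes were higher than in negative cells in both kinds of cell, and others were not. Hnf4a was at 68.7 CPM with Spink3 alone and 46.3 CPM with S100g alone, against 16 CPM in negative cells. Lefty1 was higher with S100g alone, 180 CPM, than with Spink3 alone, 106 CPM. Lrp2 was at 667 and 309 CPM and Cubn at 807 and 349.7 CPM, under 2-fold with S100g alone, and the summed uptake level lay above the negative median in 44 of 48 and 19 of 22 cells but above the negative 95th percentile in 18 and 1. Sox17, a gene of the lineage rule, went opposite ways, with log2 ratios over negative cells of -0.74 with Spink3 alone and 0.79 with S100g alone. The median of naive pluripotency genes was -0.61 with Spink3 alone and 0.052 with S100g alone, and that of glycolysis genes 0.73 and -0.16. Xist was at 95.5 and 247 CPM in the 2 kinds of cell, and cells with S100g alone were the shallower by median depth.

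**Figure D4:**
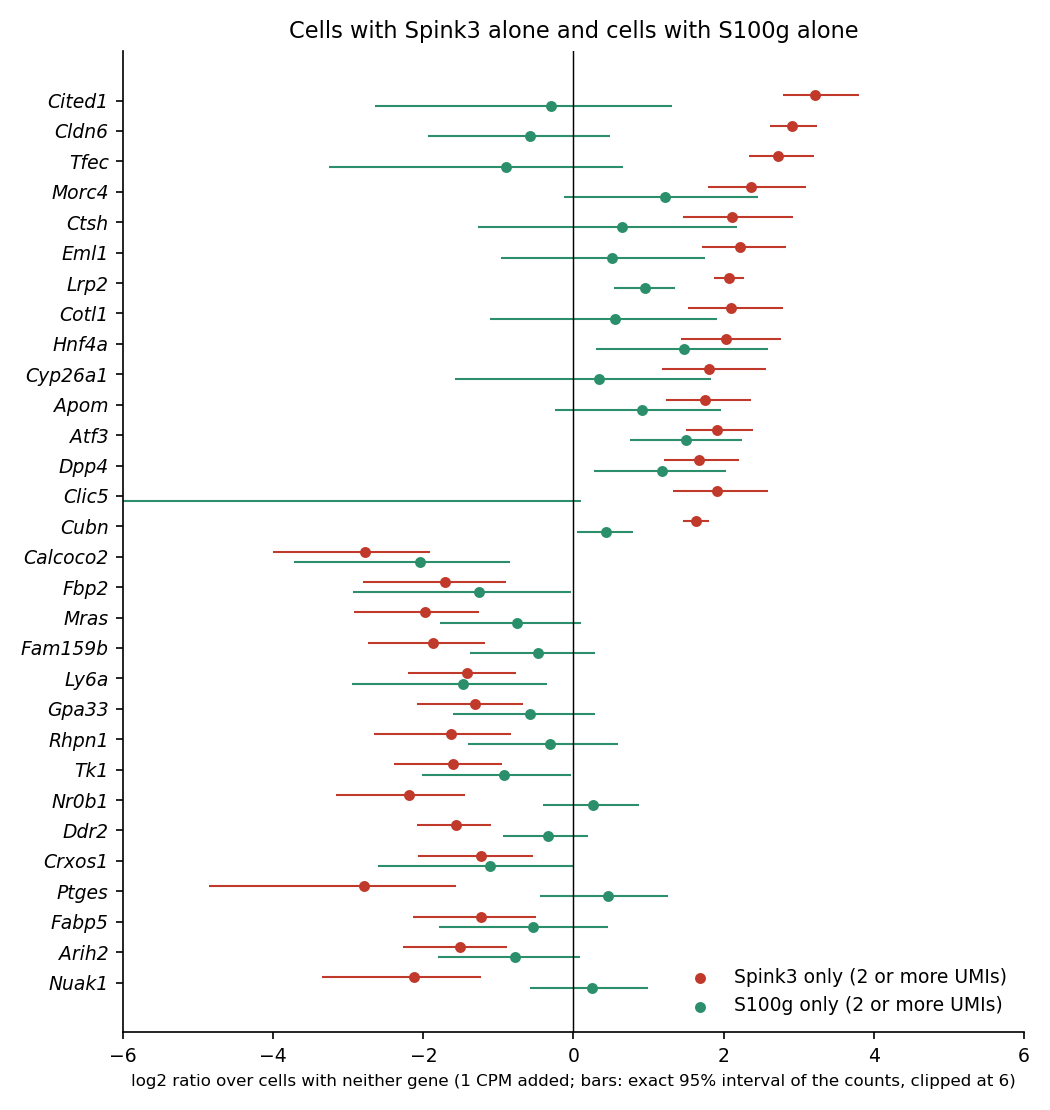
The log2 ratio over negative cells (x) of the 30 leading genes (y) for cells with Spink3 alone (red) and cells with S100g alone (green), with the exact 95% interval of the counts. Red points lie past 1 or -1 for all 30 genes and green points for 8. Clic5 had 0 UMIs in cells with S100g alone, so only its interval is drawn.

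The same split was made in the embryoid library, which the rule did not use. There 3511 cells passed as primitive endoderm, and 2689 of them (76.6%, 75.2 to 78.0%) were positive and 487 negative. Positive cells were again deeper, with medians of 5605 and 3969 UMIs. Of 4249 genes tested, 33 (0.777%) were higher and 9 (0.212%) lower. Of the 50 genes higher in the blastocyst, 42 were tested in the embryoid, and 8 were past 2-fold in both, which is 16% of the blastocyst list and 24.2% of the embryoid list. They were Cubn, Dab2, Ctsc, Ctsh, Dpp4, Amot, Eml1 and the kinase Sgk1, so that uptake receptor, adaptor and proteases make up 4 of the 8.

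Cubn was at 147 against 22.0 CPM in the embryoid, a ratio of 2.68 (2.32 to 3.19), and Dab2 at 1150 against 374 CPM, 1.62. Amn, at 173 against 37.5 CPM, reached 2.17 there. Lrp2 did not follow, with 314 against 263 CPM and a ratio of 0.25. Cited1 and Cldn6, the 2 genes with the largest ratios in the blastocyst, were at 1170 against 960.5 CPM and 1211 against 1002 CPM, ratios of 0.28 and 0.27, high on both sides. Tfec (640 and 11 UMIs) and Apom (811 and 6 UMIs) had ratios of 2.65 and 3.67 but stayed below 50 CPM. Ttr, nearly absent from the blastocyst cells, was at 343 against 67.0 CPM.

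Over the 42 genes, 35 had the same direction in the embryoid and 7 the opposite, with a median of 0.38 beside -0.02 for all genes tested there. The 7 were Cyp26a1, Bnip3, H2-K1, Rhoc, Atf3, Pias1 and Ldha, and Cyp26a1 had the lowest ratio, -0.81. None of the 22 lower genes was past 2-fold in the embryoid. Only 3 of them were tested there, and Calcoco2 had 0 UMIs on both sides.

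**Figure D5:**
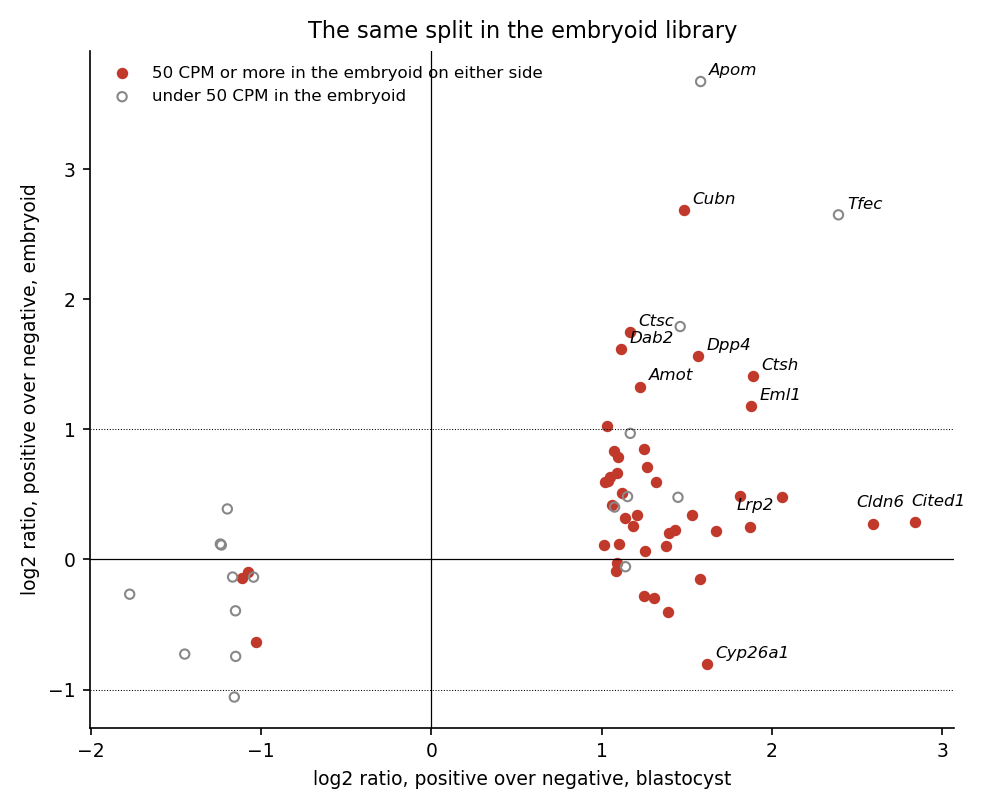
The log2 ratio of positive over negative cells in the blastocyst (x) and in the embryoid (y), for 63 genes past 2-fold in the blastocyst that had at least 10 UMIs in the embryoid. Filled points are the 45 with at least 50 CPM there. Cubn, Dab2, Ctsc, Ctsh, Dpp4, Amot and Eml1 lie above the dotted line at 1, and Cited1, Cldn6 and Lrp2 lie between 0 and 1.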

How the data were processed

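Libraries were made with the BD Rhapsody whole transcriptome kit from cells released with TrypLE, per the labels' protocols. The authors deposited 1 table of UMI counts per gene and cell for each library, and the submitters' processing notes list the mm10 build with STAR 2.7.1a, featureCounts 1.6.4 of Subread, UMI-tools 1.0.1 and bcl2fastq 2.19.1.403. Their settings and any use of strand are not given in those notes. The blastocyst table held 1288 barcodes and 11047555 UMIs, and that of the embryoids held 5546 barcodes and 28923930 UMIs. Cells were filtered and classed as the text states. UMIs were summed per side and scaled to CPM with Python 3.11.15, numpy 2.4.6, scipy 1.17.1 and pandas 2.3.3. No count model was fitted, since each group is 1 library. On simulated blastocyst counts, 50 of 50 genes set 3-fold higher and 47 of 50 set 4-fold lower were recovered, and 0 of 3793 unchanged genes were called. The changed genes all had at least 50 CPM in negative cells. Cells of a side differed only by depth and Poisson counting error, so the simulation gives no false call rate for real cells. Scrublet (scanpy 1.11.5) called 17 cells of the blastocyst library (1.55%), 0 of them primitive endoderm, and none was removed. Named genes are the 15 with the largest ratio in each direction among those past 2-fold that keep their direction per cell, thinned and at equal depth, plus described members of the gene lists. Other genes named were chosen after their values were seen. Members and lists were chosen with earlier results of these data known. Upstream sequences are from RefSeq. The alternatives covered scaling, depth, pseudocount, gene filter, threshold, splitting gene, cell filters and doublets, and 4 of them, the cells with a single gene and the depth of the embryoid cells, were chosen after seeing the data.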

Additional observations from a re-analysis of the deposited data

Results flagged for a closer look

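Cyp26a1 was higher in positive than in negative cells of the blastocyst, with a log2 ratio of 1.62 (1.05 to 2.31), and lower in those of the embryoid, with -0.81 (-0.89 to -0.73), at 423 against 740.2 CPM. The opposite directions drew attention, and the difference between the libraries was not tested, since each is 1 library.

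Of the 46 blastocyst cells that matched no lineage, 8 (17.4%, 7.82 to 31.4%) had a UMI of Spink3 or S100g, beside 4 of 626 epiblast and trophectoderm cells (0.639%, 0.174 to 1.63%). These cells lie outside the comparison, and their median depth was 2832 UMIs. Thinned to 3000 UMIs, 2 of the 22 cells deep enough had such a UMI. Scrublet called 13 of the 46 as doublets.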

How the results depend on the processing

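No paired analysis was possible because each kind of sample is 1 library. The counts of 50 higher and 22 lower genes moved with the setting. They were 98 and 86 with cells thinned to 3000 UMIs, 77 and 58 with positive cells at 3 or more UMIs, 121 and 124 at 5 or more, and 642 and 1104 with no gene filter. They were 84 and 97 for cells with Spink3 alone and 134 and 73 for cells with S100g alone. The lower count was 11 with 10 CPM added, 72 with Spink3 as the splitting gene whatever S100g, 36 with S100g as the splitting gene, 35 at 10% mitochondrial UMIs or less and 14 without cells above the 95th percentile of UMIs. Of the 50 and 22 genes, 31 and 11 stayed past 2-fold by the mean of per-cell CPM and 34 and 15 at 10% mitochondrial UMIs or less. With S100g as the splitting gene 1 and 3 stayed, but the negative side of that split held cells with Spink3.

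A list median was taken as reversed where it was 0.3 or more in size and changed sign. With S100g as the splitting gene, the negative side included 48 cells with 2 or more UMIs of Spink3 and 28 with 1. On that split, Cited1 was -0.95, Tfec -0.33, Cyp26a1 -0.053, Clic5 -1.89, Nr0b1 0.034, Ptges 0.54 and Nuak1 0.28. The medians were 0.051 for naive pluripotency and 0.11 for sex-linked genes. In cells with S100g alone, Cited1 was -0.30, Cldn6 -0.58, Tfec -0.90, Nr0b1 0.26, Ptges 0.46 and Nuak1 0.25, and the medians were -0.12 for tight junction, 0.052 for naive pluripotency, -0.16 for glycolysis, -0.018 for secretory pathway, 0.046 for DNA methylation and 0.15 for sex-linked genes. The tight junction median was -0.12 after thinning, and that of FGF and ERK targets -0.048 at 5 or more UMIs. Of the 20 lists with a median under 0.3, 15 changed sign in at least 1 alternative not split by S100g, so their sign carries no weight. The causes were not tested. The positive share was 33.4% at 1 or more UMIs and 13.7% at 3 or more. The depth ratio was 1.61 at 10% mitochondrial UMIs or less and 0.953 with the sides drawn after thinning. In those equal-depth sides, drawn from the library on which the genes were picked, all 50 and 22 genes kept their direction. Of these, 29 and 13 stayed past 2-fold. Genes near 50 CPM rest on few UMIs, so small differences among them were not detectable at this depth.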

Other observations

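Some genes below the level needed for the comparison still differed in count. Fgf5, an FGF of the epiblast after implantation, had 14 UMIs in positive cells and 1 in negative cells, and 13 of the 14 lay in cells with Spink3 alone. Lhx1, a homeobox gene of the anterior visceral endoderm, had 13 and 3 UMIs. Nodal had 12 and 10 UMIs, or 11.8 and 4.01 CPM, and the lipoprotein assembly gene Mttp 19 and 13 UMIs, or 18.7 and 5.21 CPM. These genes were chosen after their values were seen. The early response gene Jun had 35 and 29 UMIs, and 20.0% of the former came from 1 cell.

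Genes named for calcium handling, the role of the S100g product, were level. Of 12 tested none was past 2-fold, and the median of the 14 measured was 0.05. The calcium channel gene Trpv6, which works with the S100g product in gut, had 0 UMIs in positive cells and 2 in negative cells. Serine proteases and their inhibitors, the family that Spink3 belongs to, had a median of 0.18 over 13 measured and none past 2-fold among 8 tested.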
